A study of Mus musculus with 6 samples.

Results

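Adrenomedullin, apelin, thrombin, sphingosine 1-phosphate and endothelin act on blood vessels through G protein-coupled receptors. The genes examined here are those of 10 ligands, receptors and receptor subunits of these systems: Adm, Apln, Calcrl, Ramp1, Ramp2, Ramp3, F2r, S1pr1, Ednra and Ednrb. Their probe sets (groups of short probes that together read a transcript) were chosen by gene symbol alone, taking every probe set annotated with a single one of these symbols. The list itself was drawn up with earlier results of these arrays known, in which Calcrl and F2r had differed between the groups, so all member values are given as a description and no test of a member supports anything. The rule found 17 probe sets of 9 genes among the 45101 on the array, with no entry for Ednra, whose array level was not analysed here. Of the 17, 13 were bright enough to be tested.

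The arrays held RNA of mouse embryonic stem (ES) cells differentiated into embryoid bodies, aggregates in which mesoderm forms, and sorted for the receptor Flk1 (gene Kdr). SclKO cells (n = 2 arrays) carry a knockout of Scl, the blood transcription factor encoded by Tal1. They came from the ES line J1, of 129S4/SvJae origin, and were sorted on Flk1 alone, although their sample titles call them Flk+Scl-. WT Scl+ (n = 2) and WT Scl- cells (n = 2) came from a reporter line made from the ES line R1, of (129/Sv x 129/Sv-CP)F1 origin, whose human CD4 knock-in at Scl shows Scl expression, and were Flk1+ cells with and without human CD4. All were grown for 2 days in pre-EB medium with LIF and then for 4 days as embryoid bodies. In both comparisons with SclKO, the knockout, the ES line and the sort gate cannot be told apart, and nothing in the labels says that the 2 arrays of a group came from separate cultures, so their spread may be technical.

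As background, adrenomedullin signals through the receptor encoded by Calcrl, which reaches the cell surface and gains its ligand preference only with a partner of the RAMP family: with RAMP1 it prefers calcitonin gene-related peptide, with RAMP2 or RAMP3 adrenomedullin. In mice, loss of adrenomedullin, of Calcrl or of Ramp2 impairs blood and lymph vessels and is lethal before birth. F2r encodes the thrombin receptor PAR1, S1pr1 the main sphingosine 1-phosphate receptor of endothelium, and Ednrb an endothelin receptor known for its role in neural crest and endothelium.

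The promoter windows of 3 members are shown because Calcrl and F2r were among the members that differed most between groups, while Apln hardly varied. Each runs from 250 bases before to 50 after the gene's start in the RefSeq table of the mouse build GRCm38.p6, which held windows for 8 of the 10 members; all 3 genes lie on the minus strand, and the sequences read 5′ to 3′ along the gene. Capitals mark matches, on either strand, to the E-box letters CANNTG bound by helix-loop-helix factors such as Scl, to GATAA (GATA factors) and to AGGAAG (ETS factors).
Calcrl, chr2:84425217-84425516: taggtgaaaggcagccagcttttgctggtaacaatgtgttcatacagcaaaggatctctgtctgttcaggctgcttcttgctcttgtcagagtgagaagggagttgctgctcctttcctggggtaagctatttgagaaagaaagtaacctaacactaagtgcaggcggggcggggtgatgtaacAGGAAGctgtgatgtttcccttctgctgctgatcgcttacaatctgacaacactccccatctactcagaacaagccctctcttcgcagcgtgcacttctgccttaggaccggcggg
F2r, chr13:95618417-95618716: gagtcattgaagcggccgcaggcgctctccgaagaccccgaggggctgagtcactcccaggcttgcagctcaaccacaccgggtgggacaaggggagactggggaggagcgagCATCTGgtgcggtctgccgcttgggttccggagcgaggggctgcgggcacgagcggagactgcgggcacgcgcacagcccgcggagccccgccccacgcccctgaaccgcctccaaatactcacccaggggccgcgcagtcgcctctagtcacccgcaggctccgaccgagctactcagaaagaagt
Apln, chrX:48034804-48035103: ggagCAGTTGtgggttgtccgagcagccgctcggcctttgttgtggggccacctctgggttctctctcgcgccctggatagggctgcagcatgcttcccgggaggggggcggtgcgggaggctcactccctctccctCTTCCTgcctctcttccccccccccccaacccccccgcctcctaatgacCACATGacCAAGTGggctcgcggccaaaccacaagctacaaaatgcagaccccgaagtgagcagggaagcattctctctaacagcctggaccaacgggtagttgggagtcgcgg
The Calcrl window held 1 AGGAAG match and no E-box or GATAA match. The F2r window held 1 E-box, and that of Apln 3 E-boxes and 1 AGGAAG match. Among the 32851 windows of the table, 72.3% held an E-box, 25.4% GATAA and 35.4% AGGAAG. Of the other members with a window, Ramp1, Ramp3 and Ednra had 1 E-box each and Adm and Ednrb had 0. AGGAAG matched 4 times in Ednra, 1 time in Ramp3 and 0 times in Adm, Ramp1 and Ednrb. GATAA was found in 0 of the 8. A match is a stretch of letters and not a bound site, and enhancers farther away were not examined.

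Levels are natural logs of the deposited signal, which had a median between 5.2 and 5.25 on the 6 arrays. The scale of the deposited values is not stated. Between 1040 and 1153 probe sets on each array exceeded 65535, the ceiling of a 16-bit scanner, and the highest values were 2593510 to 2823000, which goes against a linear intensity. Folds are therefore given for the reading in which the natural log is the log2 value of RMA, the authors' summary of each probe set, so that 1 log unit is 2-fold. Values under the 40th percentile of their array, which lay between 4.54 and 4.59, are called dim and give no exact level. Because probe sets bind with different strength, levels are compared between groups within a probe set and never between probe sets. In bulk RNA, fewer cells of a kind and less RNA per cell cannot be told apart.

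Tal1 was at 5.71 and 6.14 in SclKO, 8.65 and 8.78 in WT Scl+, and 6.52 and 7.97 in WT Scl-. Kdr stood between 10.83 and 11.35 on the 6 arrays, and all 4 genes listed as marks of Flk1+ mesoderm (Kdr, Etv2, Tal1 and Pdgfra) were above the limit on every array. WT Scl+ replicate 2 stood apart from the rest, at -78.4 on a first principal component with 53.2% of the variance, the other arrays lying between -11.5 and 38.1. WT Scl- replicate 2 lay nearer to WT Scl+ than WT Scl- replicate 1 did in Tal1, and the same holds for many values below. The mean level of 10 endothelial marker genes was 5.09 and 5.74 in SclKO, 6.48 and 7.04 in WT Scl+, and 4.66 and 6.07 in WT Scl-; of these 10, 3 were above the limit on every array, and Emcn and Robo4 were dim on all. The mean of 8 blood marker genes was 4.63 and 4.88 in SclKO, 6.66 and 6.18 in WT Scl+, and 4.88 and 5.39 in WT Scl-, with Ptprc dim on every array. Markers of primitive streak and early mesoderm ran the other way: the mean of 6 genes was 8.59 and 8.47 in SclKO, 7.27 and 6.65 in WT Scl+, and 8.47 and 8.12 in WT Scl-. All 7 of their probe sets tested were lower in WT Scl+ than in WT Scl- without overlap, and all 7 were higher in SclKO than in WT Scl+, with median differences of -1.47 and 1.45 log units. Markers of cardiac and mesenchymal mesoderm were lower in WT Scl+ than in WT Scl- in 9 of 13 probe sets without overlap and higher in SclKO than in WT Scl+ in 9 of 13. Over all probe sets tested these shares were 21.2% and 24.4%. The mean of 6 endoderm markers was 5.92 and 5.73 in SclKO, 6.45 and 6.23 in WT Scl+, and 5.46 and 5.68 in WT Scl-. The list did not run 1 way, so its mean does not speak for every gene in it. Of their 7 probe sets tested, 3 were lower in SclKO than in WT Scl+ without overlap, those of Hhex and Sox17. Another 3 were higher, those of Foxa2 and Cer1. Over all probe sets tested 18.2% were lower and 24.4% higher. Hhex was at 7.37 and 7.77 in SclKO, and 9.79 and 9.92 in WT Scl+. Foxa2 ran the other way, at 5.94 and 5.75 in SclKO, and 5.72 and 5.29 in WT Scl+. Against WT Scl-, 4 of the 7 were higher in WT Scl+ without overlap and 0 lower. The mean of 5 ES cell markers overlapped between WT Scl+ and both other groups. The part of any of these lists in the differences of members and partners was not tested.

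The clearest pattern was that the adrenomedullin receptor and its partner Ramp2, together with the thrombin receptor gene F2r, stood higher in WT Scl+ than on any array of the other groups. Calcrl (probe set 1425814_a_at), the receptor itself, was at 4.92 and 5.1 in SclKO, 7.95 and 8.51 in WT Scl+, and 4.74 and 6.34 in WT Scl-. Both WT Scl+ arrays lay at least 1.62 log units above every other array, while SclKO fell within the range of WT Scl-. WT Scl+ exceeded WT Scl- by 2.70 log units (SE 0.51), which is 6.48-fold on that reading. SclKO differed from WT Scl+ by -3.22 log units (SE 0.51), being lower by 9.34-fold. Against WT Scl- the SclKO difference was -0.53 log units (SE 0.51), and its sign rested on WT Scl- replicate 2, since it was 0.27 without that array and -1.33 without replicate 1. Without WT Scl- replicate 1 the difference of WT Scl+ over WT Scl- was 1.90 log units. The other Calcrl probe sets, 1418489_a_at and 1459536_at, were dim on all 6 arrays and give no exact level; their values ran from 2.33 to 3.99 and from 2.05 to 2.77.

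**Figure D1:**
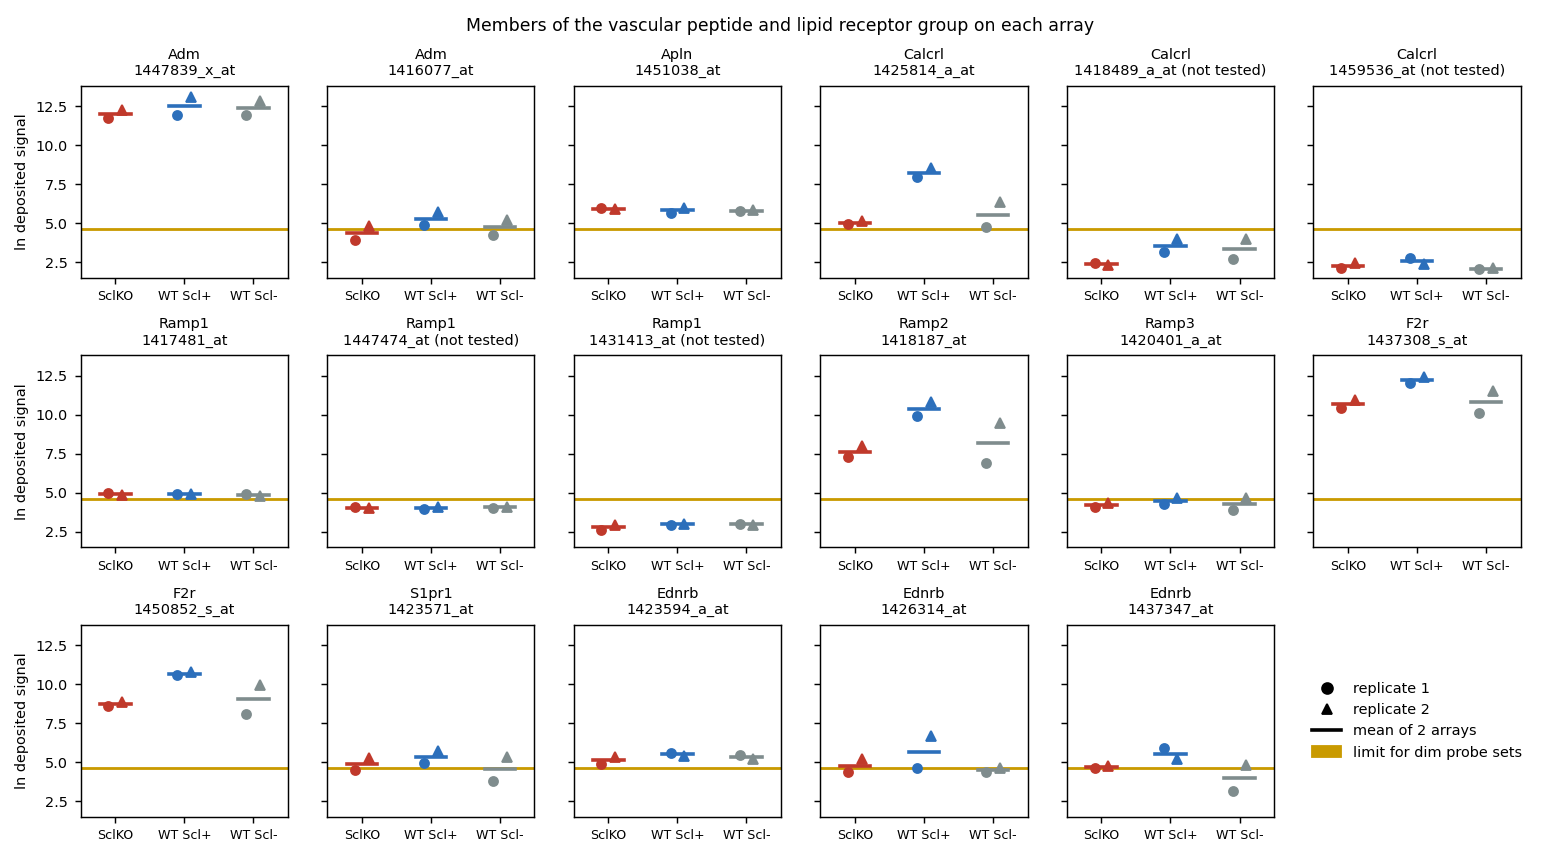
Natural log of the deposited signal for each of the 17 member probe sets (1 panel each), by group along the x axis. Circles are replicate 1, triangles replicate 2, the bar is the mean of the 2 arrays, and the thin band is the limit for dim probe sets, 4.54 to 4.59. In the panels of Calcrl 1425814_a_at, Ramp2 and both F2r probe sets the WT Scl+ arrays lie above all others, and WT Scl- replicate 2 lies between them and WT Scl- replicate 1.

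Ramp2, the partner that makes Calcrl an adrenomedullin receptor, was at 7.26 and 7.97 in SclKO, 9.93 and 10.78 in WT Scl+, and 6.87 and 9.44 in WT Scl-. The WT Scl+ arrays were again the 2 highest, but WT Scl- replicate 2 came within 0.49 log units of them, and the WT Scl- replicates were 2.57 apart. WT Scl+ exceeded WT Scl- by 2.20 log units (SE 0.81, 4.58-fold), a value that was 0.91 without WT Scl- replicate 1 and 3.48 without replicate 2. For SclKO against WT Scl+ the difference was -2.74 log units (SE 0.81, lower by 6.67-fold), and it stayed between -3.16 and -2.32 when any array of these groups was left out. SclKO and WT Scl- overlapped, with a difference of -0.54 log units that was 0.74 without WT Scl- replicate 2.

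The other RAMP genes did not show this pattern. Ramp1, the partner for calcitonin gene-related peptide, had 1 probe set above the limit (1417481_at), at 4.95 and 4.82 in SclKO, 4.91 on both WT Scl+ arrays, and 4.88 and 4.78 in WT Scl-. Its whole range over the 6 arrays was 0.17 log units, at a level close to the limit for dim probe sets, where a difference may go unseen. The WT Scl+ and WT Scl- arrays did not overlap there, but the gap between them was 0.03 log units. The other Ramp1 probe sets were dim on every array. Ramp3, the alternative adrenomedullin partner, was at 4.11 and 4.32 in SclKO, 4.28 and 4.67 in WT Scl+, and 3.89 and 4.63 in WT Scl-. It passed the limit on 1 array of each WT group, and the 3 groups overlapped.

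Adm, the ligand, was read by a pair of probe sets. The brighter (1447839_x_at) was at 11.71 and 12.23 in SclKO, 11.9 and 13.07 in WT Scl+, and 11.94 and 12.84 in WT Scl-. All 3 groups overlapped, and the replicates of WT Scl+ were 1.17 log units apart, more than any difference between group means. An x in its name marks probes that can bind other transcripts, and the annotation gives it no accession. The other probe set (1416077_at) was at 3.9 and 4.81 in SclKO, 4.89 and 5.69 in WT Scl+, and 4.22 and 5.23 in WT Scl-. There the SclKO arrays lay below those of WT Scl+ by a gap of 0.08 log units, with a difference of -0.94 (SE 0.47), or -0.62 with dim values set to the limit. It was -0.48 without SclKO replicate 1 and -0.53 without WT Scl+ replicate 2. Apln, the ligand of the apelin receptor, varied by 0.31 log units over the 6 arrays: it was at 5.94 and 5.92 in SclKO, 5.67 and 5.98 in WT Scl+, and 5.76 and 5.81 in WT Scl-. SclKO lay above WT Scl- without overlap, by 0.15 log units (SE 0.17).

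F2r, the thrombin receptor, followed Calcrl in both of its probe sets. In 1437308_s_at it was at 10.42 and 10.93 in SclKO, 12.04 and 12.42 in WT Scl+, and 10.11 and 11.52 in WT Scl-. In 1450852_s_at the values were 8.62 and 8.84 in SclKO, 10.56 and 10.78 in WT Scl+, and 8.09 and 9.95 in WT Scl-. WT Scl+ lay above all other arrays in both, and SclKO lay inside the range of WT Scl-. The second probe set gave the larger differences, 1.65 log units (SE 0.56, 3.13-fold) for WT Scl+ over WT Scl- and -1.94 (SE 0.56, lower by 3.84-fold) for SclKO over WT Scl+. Without WT Scl- replicate 1, WT Scl+ exceeded WT Scl- by 0.71 log units in the first and 0.72 in the second. The s in both names marks probes shared by several transcripts.

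S1pr1, the sphingosine 1-phosphate receptor, was at 4.49 and 5.29 in SclKO, 4.93 and 5.7 in WT Scl+, and 3.76 and 5.36 in WT Scl-. Replicates differed by 0.77 to 1.59 log units, the 3 groups overlapped, and 4 of the 6 arrays were above the limit. WT Scl+ over WT Scl- gave 0.76 log units (SE 0.57), or 0.35 with dim values at the limit. Leaving out WT Scl- replicate 1 brought the difference to -0.04. Ednrb, the endothelin receptor, had 3 probe sets that did not give the same picture. In 1437347_at it was at 4.6 and 4.74 in SclKO, 5.9 and 5.19 in WT Scl+, and 3.17 and 4.79 in WT Scl-, so that WT Scl+ lay above both other groups; the difference over WT Scl- was 1.57 log units (SE 0.53), or 0.86 with dim values at the limit. It was 0.76 without WT Scl- replicate 1 and 2.37 without replicate 2. In 1426314_at only WT Scl+ replicate 2, at 6.68, stood out, the other 5 arrays lying between 4.34 and 5.21. In 1423594_a_at the values were 4.91 and 5.32 in SclKO, 5.61 and 5.4 in WT Scl+, and 5.44 and 5.23 in WT Scl-, a range of 0.71 log units.

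**Figure D2:**
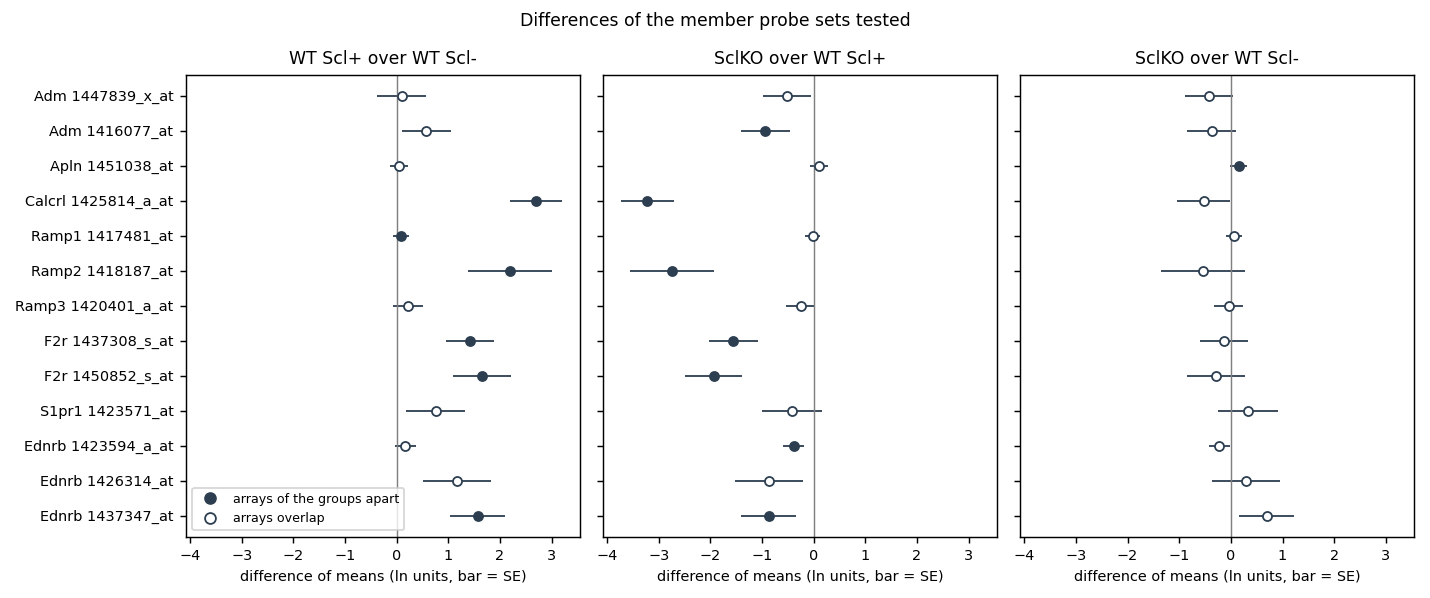
Difference of group means in natural-log units for the 13 member probe sets tested, in each comparison, with bars of 1 standard error from limma; filled points mark groups whose arrays do not overlap. Calcrl, at 2.70 and -3.22, and Ramp2, at 2.20 and -2.74, lie farthest from 0 in the first and second panel, and the points of the third panel lie between -0.54 and 0.69.

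Counted over the members, WT Scl+ stood above WT Scl- without overlap in 6 of the 13 probe sets tested, against 16.6% of all 28362 probe sets tested, and below it in 0, against 21.2%. SclKO stood below WT Scl+ without overlap in 7 of 13, against 18.2% of all, and above it in 0, against 24.4%. Between SclKO and WT Scl-, SclKO was higher without overlap in 1 (Apln), against 21.7% of all, and lower in 0, against 19.5%. The median difference over the 13 was 0.76 log units for WT Scl+ over WT Scl-, against -0.04 over all probe sets tested; it was -0.87 against 0.05 for SclKO over WT Scl+, and -0.13 against 0.01 for SclKO over WT Scl-. Because the members were chosen with these contrasts known, nothing is read from these counts and medians, and the 3 comparisons share arrays. At a limma adjusted p under 0.05 no member was called in any comparison. Over all probe sets tested, the share called was 0% for WT Scl+ over WT Scl- and 0.0106% for each comparison with SclKO, where the same 3 probe sets, those of Cdkn1c and Gm6958 and 1 with no gene symbol, passed. For WT Scl+ over WT Scl-, 5 of the 13 members (38.5%) reached an unadjusted limma p under 0.05 as higher and 0 as lower. Over all probe sets tested the shares were 4.44% and 4.94%. For SclKO over WT Scl+ such a p was reached as lower by 4 members (30.8%), against 5.68% of all. As higher it was reached by 0 members, against 7.35% of all. For SclKO over WT Scl- it was reached by 0 members, against 2.7% of all as higher and 2.77% as lower. These shares too are only a description. In this fit of all 3 groups, the lowest limma adjusted p of any member was 0.136, for SclKO over WT Scl+.

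The members also differed between arrays of the same group. Replicate 2 was the higher array in all 3 groups for 9 of the 13 probe sets tested, against 13.9% of all probe sets. These 9 were both probe sets of Adm and of F2r, and those of Calcrl, Ramp2, Ramp3, S1pr1 and Ednrb 1426314_at. In WT Scl- the replicates of Calcrl were 1.60 log units apart, those of Ramp2 2.57 and those of F2r 1450852_s_at 1.86, while in SclKO the same probe sets differed by 0.18, 0.71 and 0.23. The mean of the 10 endothelial markers was also higher in replicate 2 of each group, as given above.

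To see which genes shared the pattern, values were centred on each gene's mean over the 6 arrays and the root mean square difference from Calcrl and from Ramp2 was taken. Closest to Calcrl, which itself varied by 3.78 log units, were Atp2a3 (root mean square difference 0.15 log units), Gimap4 (0.28), 2210408K08Rik (0.28), Ikzf1 (0.29) and Zfp711 (0.29). Closest to Ramp2, with a range of 3.9, were the ETS factor genes Erg (0.18) and Fli1 (0.24), then Selenop (0.25), the endothelial adhesion gene Esam (0.26) and Tspan8 (0.26). Calcrl and Ramp2 differed from each other by 0.4 log units on the same measure, and Ramp2 from F2r 1450852_s_at by 0.45. Atp2a3, for example, was at 4.22 and 4.54 in SclKO, 7.32 and 7.8 in WT Scl+, and 3.75 and 5.79 in WT Scl-. These are the nearest of many probe sets over 6 arrays, and they say nothing of shared control.

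**Figure D3:**
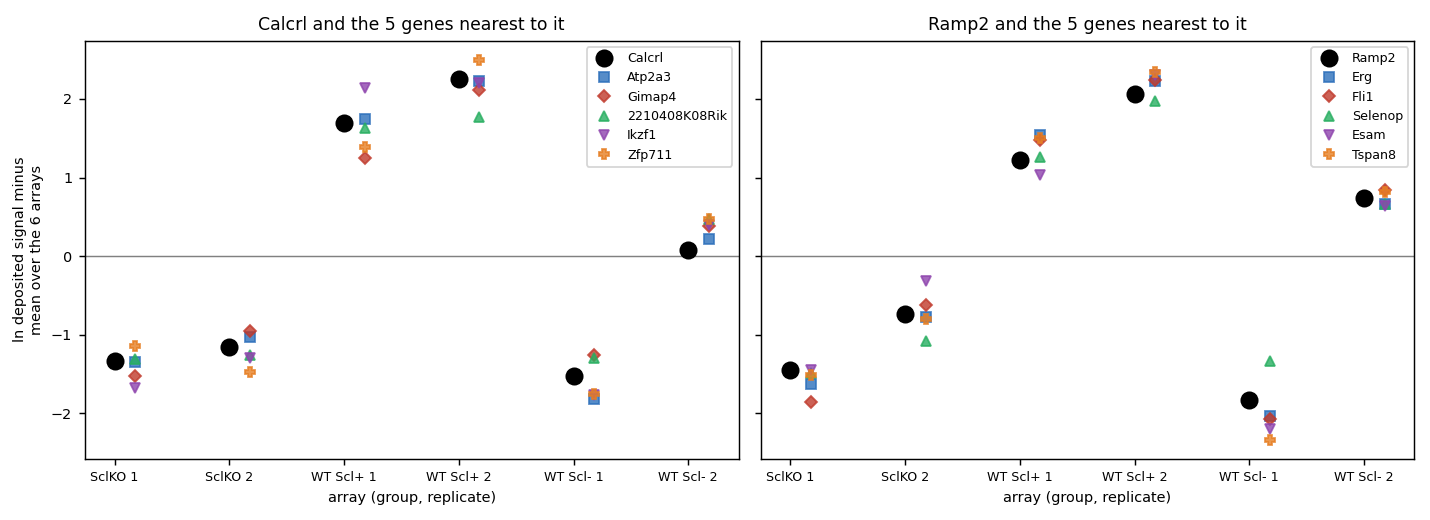
Natural log of the deposited signal minus its mean over the 6 arrays, for Calcrl (left) and Ramp2 (right) as large black points and for the 5 genes nearest to each as coloured points; the x axis gives group and replicate. All of these genes lie highest on the 2 WT Scl+ arrays, and WT Scl- replicate 2 lies well above WT Scl- replicate 1.

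Beside the members, 53 partner genes of the same pathways were listed, of which 50 had a probe set and 87 of 110 probe sets were tested. None of the 87 was called by limma in any comparison. At an unadjusted p under 0.05, 11 were higher and 10 lower in WT Scl+ than in WT Scl-, 16 higher and 11 lower in SclKO than in WT Scl+, and 6 higher and 1 lower in SclKO than in WT Scl-. In shares these are 12.6% and 11.5%, 18.4% and 12.6%, and 6.9% and 1.15% of the partners, beside 4.44% and 4.94%, 7.35% and 5.68%, and 2.7% and 2.77% of all probe sets tested. Their median differences were 0.02, 0.12 and 0.12 log units.

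Among the 18 probe sets of other receptors, 8 were higher and 6 lower in WT Scl+ than in WT Scl- without overlap. Over all probe sets tested the shares were 16.6% higher and 21.2% lower. Aplnr, the receptor for the peptide made by Apln, was bright in both probe sets. In 1423037_at it was at 10.06 and 9.93 in SclKO, 10.45 and 10.83 in WT Scl+, and 9.82 and 9.87 in WT Scl-, so that WT Scl+ lay above both other groups, by 0.79 log units (SE 0.19) over WT Scl- and with SclKO at -0.65 (SE 0.19). In 1438651_a_at the differences were 0.42 and -0.65 log units, again without overlap. Thbd, the thrombin-binding thrombomodulin, differed by 1.28 log units (SE 0.30) for WT Scl+ over WT Scl- and by -1.05 for SclKO over WT Scl+, or 0.86 and -0.81 with dim values at the limit. The lysophosphatidic acid receptor gene Lpar4 ran the other way: in 1452424_at SclKO was higher than WT Scl+ by 1.88 log units (SE 0.65), or 1.20 with dim values at the limit, and its other probe sets gave 1.09 and 0.75. The 1452424_at difference rested largely on WT Scl+ replicate 2, the array that stood apart, being 0.79 without it and 2.96 without replicate 1; without replicate 2 the others gave 0.58 and 0.74. Lpar1, another receptor for that lipid, was higher in SclKO than in WT Scl- by 1.16 log units (SE 0.36) in 1448606_at and by 0.67 in 1417143_at, while its other probe set tested overlapped.

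Of the 20 probe sets of ligands, processing enzymes and lipid carriers, 6 were higher and 4 lower in WT Scl+ than in WT Scl- without overlap. The shares of all probe sets tested were 16.6% and 21.2%. Spns2, which exports sphingosine 1-phosphate, was at 4.37 and 5.02 in SclKO, 6.37 and 6.59 in WT Scl+, and 3.98 and 5.03 in WT Scl-. WT Scl+ lay above all other arrays, by 1.97 log units (SE 0.39) over WT Scl-, and SclKO differed from WT Scl+ by -1.78 (SE 0.39). With dim values at the limit these differences were 1.68 and -1.70. Mfsd2b, another exporter of that lipid, known from red cells and platelets, differed by 1.25 log units (SE 0.24) for WT Scl+ over WT Scl- in 1442000_at, or 0.86 with dim values at the limit, while its other probe set was dim on every array. Sphk1, an enzyme that makes the lipid, varied by 0.23 log units (1420566_at), from 4.50 to 4.73. That is close to the limit for dim probe sets, where a difference may go unseen, and its other probe set was dim on every array. Plpp3, a lipid phosphatase, was higher in SclKO than in WT Scl+ by 1.62 log units (SE 0.45) in 1429514_at, but by 0.12 in 1448908_at. The value of 1429514_at was 0.89 without WT Scl+ replicate 2 and 2.35 without replicate 1. Edn1, an endothelin gene, passed the limit on 1 array and was not tested. Ece1, the endothelin-converting enzyme, had 2 probe sets in which WT Scl+ exceeded WT Scl- (by 0.58 and 0.65 log units) and 1 with the opposite sign (-0.4); without WT Scl+ replicate 2 these were 0.26, 0.42 and -0.18. Apela, the second ligand of Aplnr, was at 6.45 and 6.75 in SclKO, 7.53 and 5.03 in WT Scl+, and 5.38 and 4.46 in WT Scl- (1436287_at); SclKO was higher than WT Scl- by 1.68 log units (SE 0.78), and the WT Scl+ arrays spanned SclKO. Pam, which amidates peptides such as adrenomedullin, was higher in SclKO than in WT Scl- by 0.74 log units (SE 0.19).

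Among the 49 probe sets of G proteins and signalling regulators, 11 were higher and 11 lower in WT Scl+ than in WT Scl- without overlap. Beside them stand 16.6% higher and 21.2% lower of all probe sets tested. Rgs5, a regulator that shortens G protein signals and is known from pericytes, was at 7.89 and 7.04 in SclKO, 5.98 and 4.63 in WT Scl+, and 7.37 and 7.19 in WT Scl- (1420942_s_at). WT Scl+ lay below all other arrays, by -1.98 log units (SE 0.48) against WT Scl-, and its other 3 probe sets gave -1.69, -1.37 and -1.63. SclKO exceeded WT Scl+ by 2.16 log units (SE 0.48) in 1420942_s_at. Leaving out WT Scl+ replicate 2 brought these differences to -1.30 and 1.49. Rgs4 (1416286_at) was higher in SclKO than in WT Scl+ by 1.75 log units (SE 0.49), or 1.03 with dim values at the limit, and its other probe set tested overlapped. That difference was 1.00 without WT Scl+ replicate 2 and 2.50 without replicate 1. Between SclKO and WT Scl- the largest differences without overlap were -0.56 for Gna13 (1453470_a_at) and 0.44 for Gna12 (1421026_at). Of the 7 Gna13 probe sets tested 5 were lower in SclKO without overlap, and the other 4 of Gna12 overlapped.

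**Figure D4:**
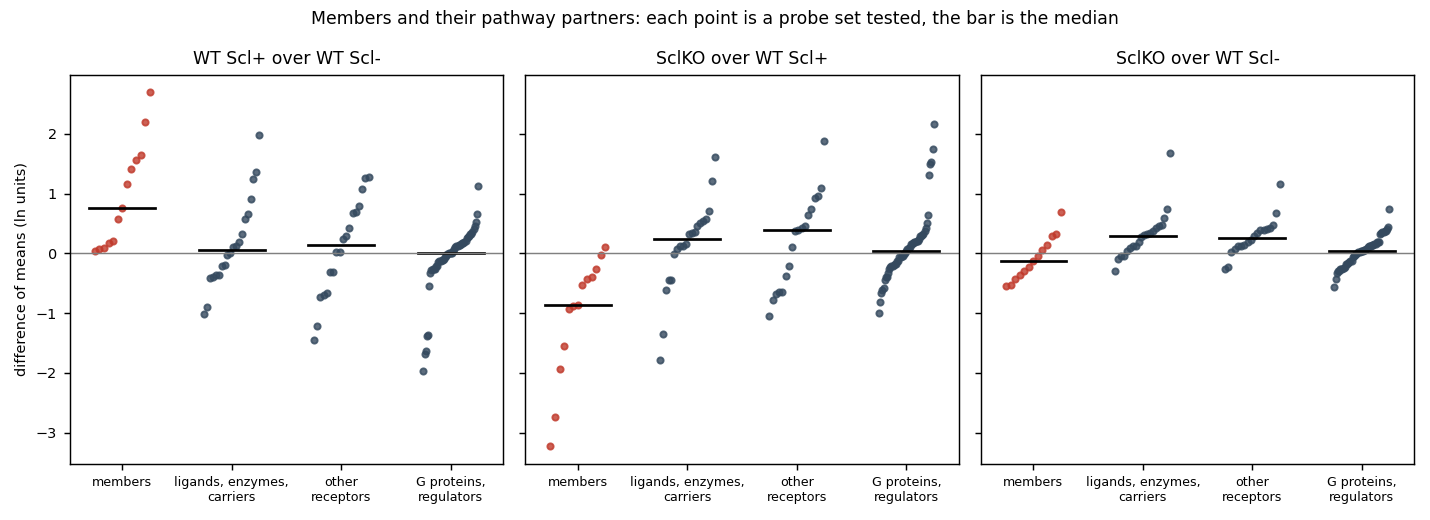
Differences of group means in natural-log units for the members (red) and the 3 lists of pathway partners (dark), 1 point per probe set tested, ordered by size within each column, with the median as a bar. The medians of the members are 0.76, -0.87 and -0.13 log units, and those of the partner lists lie between 0.01 and 0.38 log units.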

How the data were processed

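Sorted cells were measured on 6 Affymetrix arrays, and the table used here has 1 column of deposited signal per array, with 0 columns left unused. Per the submitters' processing notes, the tools were affy, limma and RMA; no version is stated. The deposited signal is not on a log scale and reached past 65535 on each array, so its natural log was taken. Of 45101 probe sets, 34958 had 1 gene symbol; symbols were updated through a RefSeq table (GRCm38.p6). A probe set was tested if it exceeded the 40th percentile of its array on at least 2 of the 6 arrays. A mean per group was fitted with limma 3.58.1 in R 4.3.3 over all 28362 probe sets tested (two-sided, Benjamini-Hochberg, called at an adjusted p under 0.05) and tested on simulated data. Precision is limited by the number of arrays. The members and lists were chosen with earlier results of these data known.

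The text names every member probe set, a fixed set of partners (Aplnr, Edn1, Ece1, Sphk1, Spns2, Apela), the 2 partner probe sets with the largest difference without overlap in each list and comparison, and the 5 genes nearest to Calcrl and Ramp2. That rule also asked for the genes nearest to Ednra, for which no probe set carries its symbol alone. Cdkn1c, Gm6958, Hhex, Foxa2, Sox17, Cer1, Pou5f1 and Klf4 were named after their values were seen. Promoter windows come from RefSeq. Other settings tried were a replicate block, other filters, 1 probe set per gene, other scalings, a fit of 2 groups only, another eBayes prior and leaving out each array.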

Additional observations from a re-analysis of the deposited data

How the results depend on the processing

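For the members, some alternatives cannot move a probe set's difference of group means, so they are no check on it. These are the replicate block, the filters, 1 probe set per gene, the fit of 2 groups and the other prior. Median centring, quantile normalisation and setting dim values to the limit can move it, and they kept every difference within 1 replicate SD. Among them only setting dim values to the limit changed a sign, for 3 of 39 differences. Leaving out an array changed the sign of 1 and 4 of 39 for WT Scl+ replicates 1 and 2, 5 and 7 for WT Scl-, and 4 and 3 for SclKO. It moved 14 of 39 by more than 1 replicate SD for each WT Scl- replicate. For each WT Scl+ replicate it moved 4, and for each SclKO replicate 0. The 39 include the comparison that the array does not enter, whose differences cannot change. The median member difference for WT Scl+ over WT Scl- was 1.65 log units with a 60th percentile filter (5 probe sets), 0.21 with 1 probe set per gene, and 0.27 to 1.31 on leaving out an array; for SclKO over WT Scl+ it was -1.94 with the stricter filter and -1.10 to -0.44 without an array, and for SclKO over WT Scl- -0.46 to 0.33. Calls were few and moved. For SclKO over WT Scl+ they were 3 in the fit as reported and 6 with the replicate block. They were 1 with 1 probe set per gene, 27 with only the 2 groups and 32 with a trended robust prior. For SclKO over WT Scl- they were 3, with 6 under the stricter filter, 1 with 1 probe set per gene and 11 with the trended prior. For WT Scl+ over WT Scl- they were 0. Partner calls were 0, except 8 for SclKO over WT Scl+ without WT Scl+ replicate 1 (0 to 8), all higher in SclKO, from Sgpl1, Rgs4, Rgs5, Plpp3 and Lpar4. The array behind 1179 and 46 is the same WT Scl+ replicate 1, whose removal leaves the array that stood apart; the cause was not tested. The replicate numbers of the groups deviated together (correlations 0.21, 0.24 and 0.21 across probe sets), but nothing in the labels pairs them, and under the block no member was called. The fit of only 2 groups called 27 of 28362 probe sets for SclKO over WT Scl+. Calcrl was among them as lower in SclKO (limma adjusted p = 0.0494), which supports nothing, given how the members were chosen. With 2 arrays a group, differences near the dim limit cannot be resolved.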
